A study of Mus musculus with 8 samples.

Results

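The genes described here form the classical MHC class I pathway: the heavy chains H2-K1 and H2-D1, their light chain B2m, the peptide transporter subunits Tap1 and Tap2, the loading and trimming factors Tapbp and Erap1, the transactivator Nlrc5, and the chaperones Calr and Pdia3. They were chosen by gene symbol, although earlier results of these data were known, and all 10 were found among the 20207 genes listed for each library. RNA was sequenced from bone marrow populations sorted from healthy mice and from mice with a chronic myelogenous leukaemia (CML)-like disease, to ask which genes differ in expression between CML stem cells and their healthy counterparts, haematopoietic stem cells (HSCs). The 8 libraries comprised 2 of long-term HSCs (LT-HSC, labelled 2 months and 6 months old), 1 of short-term HSCs (ST-HSC, 2 months), 1 of normal KLS- progenitors (2 months), 2 of LT-CML stem cells, 1 of ST-CML stem cells and 1 of CML-KLS- progenitors. Per the study's methods, LT cells were CD150+CD48-CD135-, ST cells were CD150-CD48-CD135-, both within the cKit+Lineage-Sca-1+ gate, and KLS- cells were cKit+Lineage-Sca-1-. CML-affected mice were Tal1-tTA+ TRE-BCR-ABL1+ double transgenics, in which removal of doxycycline from the drinking water switches on BCR-ABL1 in cells where the Tal1 element is active, and the methods name Tal1-tTA+ littermates as controls, so that the controls carry the transactivator too. The labels give C57BL/6 for every library and no age for the CML-affected mice, whereas the methods give FVB/N for both transgenic lines and littermate controls younger than the library labelled 6 months. The study also used healthy C57BL/6 mice as controls in another assay.

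MHC class I molecules carry short peptides from cytosolic proteins to the cell surface, where CD8+ T cells and natural killer cells inspect them. The proteasome makes the peptides, the Tap1-Tap2 transporter moves them into the endoplasmic reticulum (ER), Erap1 trims them, and a complex of tapasin (Tapbp), calreticulin (Calr) and the disulphide isomerase ERp57 (Pdia3) holds the heavy chain and B2m until a peptide binds. Nlrc5 and interferon-induced factors act at the promoters of the heavy chain, B2m and transporter genes, while Calr and Pdia3 fold many glycoproteins besides class I.

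In the mm9 genome (NCBI Build 37, GENCODE M1 annotation) 4 members besides H2-D1 lie close together on chromosome 17: Tapbp (34052844 to 34066235, plus strand), H2-K1 (34132962 to 34137278, minus), Tap1 (34324498 to 34334170, plus) and Tap2 (34340472 to 34353266, plus). H2-D1 (35399675 to 35404444, plus) is at the far end of the same complex. B2m (121973422 to 121978819, plus) and Pdia3 (121239511 to 121264423, plus) are on chromosome 2, Nlrc5 (96996663 to 97051172, plus) and Calr (87365749 to 87370833, minus) on chromosome 8, and Erap1 (74777320 to 74829983, plus) on chromosome 13. Tap1 overlaps Psmb9 in this annotation and 4% of the 100-base windows of its longest transcript also occur in Psmb9. Tap2 overlaps Gm15821 and Gm20496 and shares 4.1% of its windows with Gm15821. Reads of these genes could thus be exchanged. Tapbp, B2m and Pdia3 overlap Zbtb22, Patl2 and Catsper2, and 0% of their windows were shared. For H2-D1, 4.6% of windows were shared with other class I genes, among them H2-Q7 and H2-T23, and for H2-K1 0% were shared, which says only that these letters are not repeated in another coding transcript of the annotation. Nlrc5 is annotated there as a long non-coding RNA with 49 exons, and its shared windows were not assessed. How reads with several matches were counted is not given in the sources used here.

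Promoters of 8 of the 10 members matched the RefSeq table (GRCm38.p6, a C57BL/6 genome), and Tap2 and Nlrc5 were not among them. The 250 bases before the start are shown for both heavy chains and B2m, whose levels are compared below, and for Calr, which moved the other way in KLS- cells. Each matched 1 place in mm9: chr17:34137293-34137542 (minus strand) for H2-K1, chr17:35399789-35400038 (plus) for H2-D1, chr2:121973173-121973422 (plus) for B2m and chr8:87370831-87371080 (minus) for Calr. GENCODE M1 starts H2-D1 ahead of this window. Capitals mark, on either strand, the letters GGGATTCCC (an NF-kB motif), GAANNGAAA or GAAANNGAAA (interferon elements), TGACG (the core of a CRE, the cyclic AMP response element), CCAAT (a Y box) and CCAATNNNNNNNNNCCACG (an ER stress element, which contains a CCAAT and has its outer letters in capitals).
H2-K1: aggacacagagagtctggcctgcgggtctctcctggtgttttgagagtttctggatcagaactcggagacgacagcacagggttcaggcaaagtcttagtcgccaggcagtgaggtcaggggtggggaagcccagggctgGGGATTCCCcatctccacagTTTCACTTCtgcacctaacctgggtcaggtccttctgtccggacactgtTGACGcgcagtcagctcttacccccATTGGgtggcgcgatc
H2-D1: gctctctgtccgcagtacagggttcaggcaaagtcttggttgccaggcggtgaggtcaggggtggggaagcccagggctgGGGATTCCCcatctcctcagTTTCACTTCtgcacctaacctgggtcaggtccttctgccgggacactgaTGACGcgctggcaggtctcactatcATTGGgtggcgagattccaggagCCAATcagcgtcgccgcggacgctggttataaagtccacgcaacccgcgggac
B2m: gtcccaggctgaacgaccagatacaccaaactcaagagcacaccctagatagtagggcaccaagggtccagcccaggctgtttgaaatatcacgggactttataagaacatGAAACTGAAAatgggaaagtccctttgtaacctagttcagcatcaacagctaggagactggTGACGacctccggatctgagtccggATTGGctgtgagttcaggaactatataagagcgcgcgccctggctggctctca
Calr: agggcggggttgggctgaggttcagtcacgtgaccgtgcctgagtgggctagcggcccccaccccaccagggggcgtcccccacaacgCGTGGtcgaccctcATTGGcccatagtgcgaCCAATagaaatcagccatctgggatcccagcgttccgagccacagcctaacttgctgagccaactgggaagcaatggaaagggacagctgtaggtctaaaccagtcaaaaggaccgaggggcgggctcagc
The H2-K1 and H2-D1 promoters were identical at 91.0% of 177 aligned bases. Both held GGGATTCCC and GAANNGAAA, which occurred in 0.311% and 6.34% of 27025 promoters of the same length, and B2m held GAAANNGAAA (3.04%). TGACG (17.9% of promoters) was present in H2-K1, H2-D1, B2m, Tap1 and Pdia3, and CCAAT (34.5%) in 7 of the 8 promoters, Erap1 being the exception. An interferon element of either form, TGACG and CCAAT stood together in H2-K1, H2-D1 and B2m, and in 0.47% of all promoters. The ER stress element was found in Calr alone among the 8 and in 0.122% of all promoters.

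Depth was estimated from the low values at 17.8 to 23.9 M reads a library, so that the counting error of a member was at most 5.89% (Nlrc5 in its lowest library, an estimated 288 reads). This covers counting error only. Sorting markers followed the gates for Kit, Ly6a (the Sca-1 gene) and Slamf1 (CD150), but not for Flt3 (CD135) and Cd48. Flt3 was 61.6 and 71.6 RPKM in the ST libraries, and Cd48 was 41.8 and 45.2 RPKM there, although both gates were negative. In LT-HSC 2 months, LT-HSC 6 months, LT-CML 1 and LT-CML 2, Flt3 was 3.95, 2.52, 11.9 and 19.2 RPKM, and it passed as higher in LT-CML (log2 difference 1.96, adjusted p = 0.0184 from limma). Cd48 was 10.4, 5.17, 16.8 and 29.5 RPKM in the same libraries and did not pass (1.47, adjusted p = 0.109). Summed mature myeloid markers ranged from 29.2 to 2713 RPKM in the stem libraries, with the highest sum in LT-HSC 6 months, none of the 6 listed markers was at 0 in any library, and Ly6g was not listed. Summed lymphocyte markers (7 genes) were between 1.36 and 10.98 RPKM in all libraries. Of the 6 tested, 1 passed as lower in LT-CML than in LT-HSC, beside 1.73% of all genes in either direction. This was Cd79a (log2 difference -1.51, adjusted p = 0.0357 from limma), without a call under quantile, upper-quartile or equal-sum scaling. Cd79a was 1.66 and 3.34 RPKM in LT-HSC 2 and 6 months, 0.073 and 0.33 in LT-CML 1 and 2, and 0.20 and 6.43 in ST-HSC and ST-CML. In bulk RNA, fewer cells of a type and less RNA per cell cannot be told apart. Since nothing says how many animals or cultures stand behind a library, p-values here measure the spread between these libraries. Ddx3y, a Y-linked gene outside the lists, was 31.0 RPKM in LT-HSC 6 months and 17.5 RPKM in LT-CML 2. In every other library it was at most 0.062 RPKM. The part of sex in the spread between libraries was not tested. The normal and CML libraries also differed in genes picked after their values were seen: Trim12 was 12.5 to 33.3 RPKM in the 4 normal libraries and 0.070 to 0.18 RPKM in the 4 CML libraries, and H2-Ea, an MHC class II gene whose expression depends on the MHC haplotype, was at most 0.064 RPKM in normal libraries and 0.14 to 1.58 RPKM in CML libraries. H2-K1 and H2-D1 are among the most polymorphic genes of the mouse and reads were mapped to C57BL/6 sequence. If the CML and normal mice differed in strain, strain and disease cannot be told apart here. This holds for every comparison of CML with normal libraries and for every gene named, not only for the heavy chains.

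By RPKM, a unit that divides reads by gene length and library depth and so allows genes to be ranked, the light chain was the most abundant member in every library. B2m reached 2340 RPKM in LT-HSC 2 months, 2300 in LT-HSC 6 months, 2859 in ST-HSC, 1605 in normal KLS-, 2218 and 1567 in LT-CML 1 and 2, 2426 in ST-CML and 1398 in CML-KLS-. It ranked between 13 and 52 among all genes. Relative to the summed heavy chains, B2m stood at a ratio of 2.52 to 3.41 in the 8 libraries, with overlapping normal and CML values. Both heavy chains ranked within the first 442 genes. The transporter and trimming genes were lower, between 8.52 RPKM (Tap2 in LT-HSC 6 months) and 44.3 RPKM (Erap1 in ST-HSC), and Nlrc5 was the lowest member in every library at 1.96 to 5.82 RPKM.

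**Figure D1:**
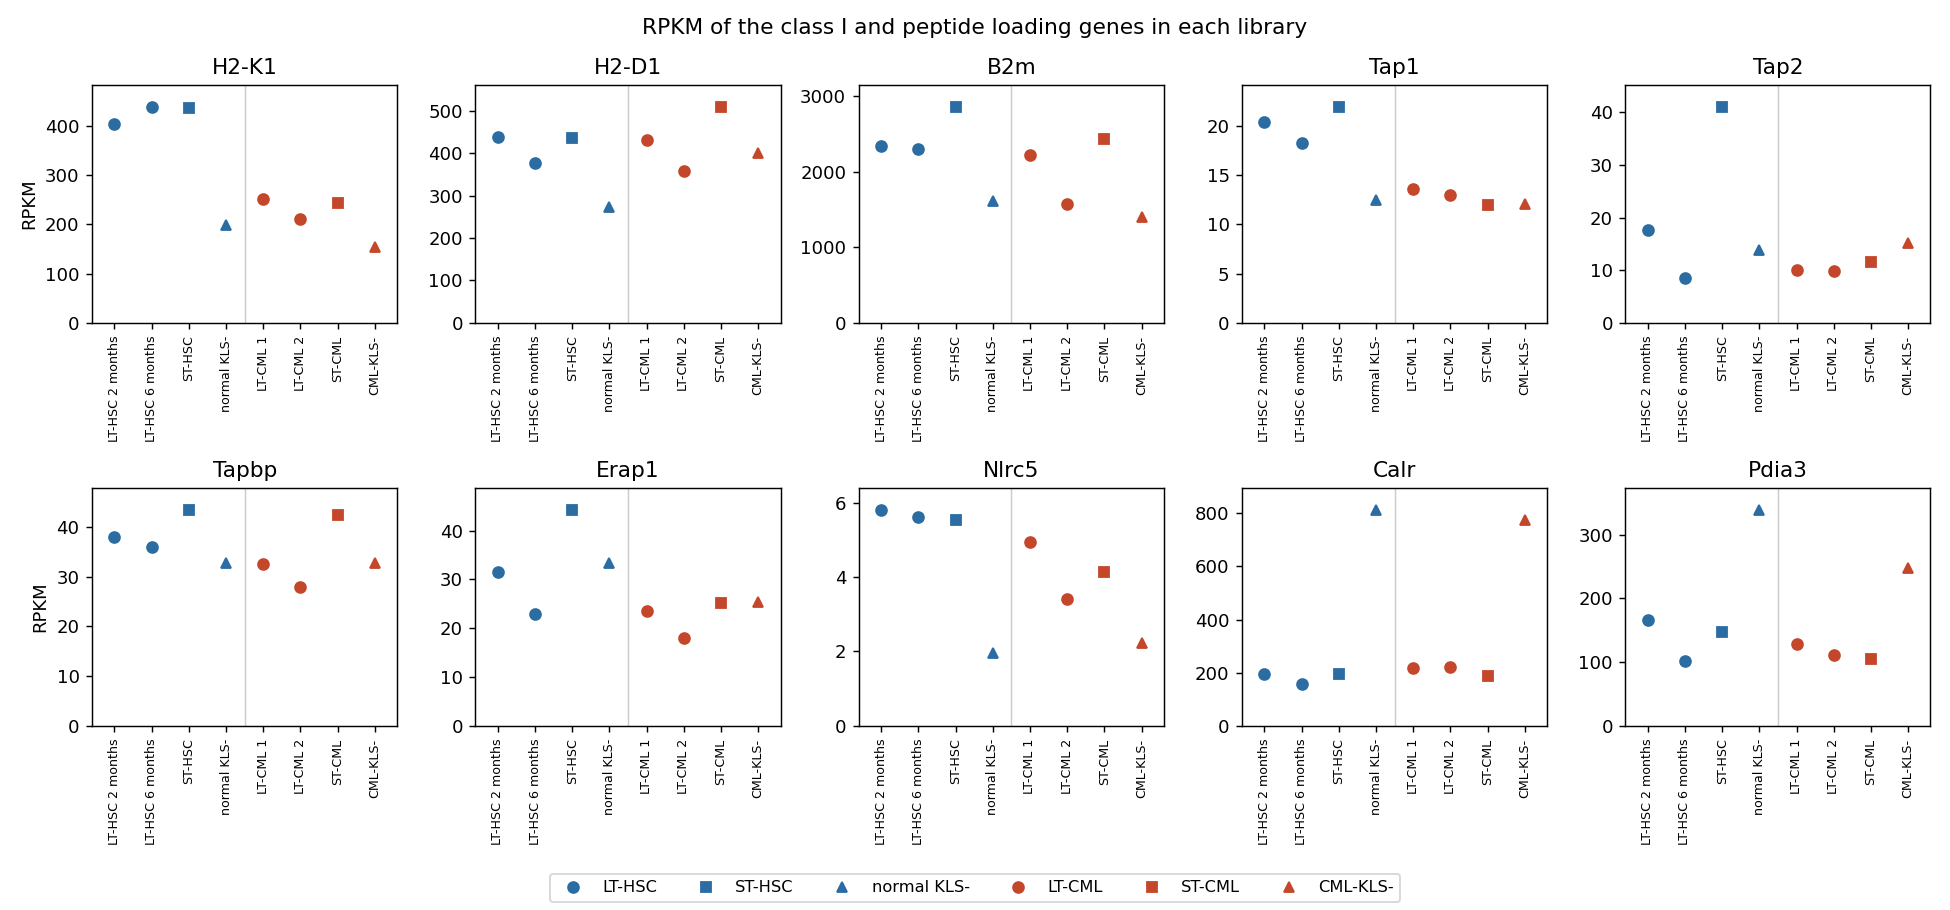
RPKM (linear axes from 0) of each of the 10 genes in the 8 libraries, 1 point per library, with normal libraries in blue left of the line, CML libraries in red right of it, and circles for LT, squares for ST and triangles for KLS-. H2-K1 is at 404 to 439 in the 3 normal HSC libraries and at 212 to 251 in the 3 CML stem libraries, whereas Calr is at 775 and 815 in the KLS- libraries and at most 220 in the others.

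Of the heavy chains, which bind the peptide, H2-K1 was lower in CML stem cells than in normal HSCs, and H2-D1 did not pass the test. H2-K1 was 404 RPKM in LT-HSC 2 months, 439 in LT-HSC 6 months and 437 in ST-HSC, against 251 in LT-CML 1, 212 in LT-CML 2 and 243 in ST-CML. The groups did not overlap, with means of 426.7 ± 19.7 (SD, n = 3) and 235.1 ± 20.9 RPKM (SD, n = 3). On the log2(RPKM + 1) scale H2-K1 fell by 0.86 (standard error 0.12, 95% limits -1.14 to -0.58, adjusted p = 0.0129 from limma). H2-K1 was the only one of the 10 members that passed the threshold of 0.05 in this comparison, in which 2.34% of the 12561 genes tested passed and 1.16% passed as lower. The exact permutation p, two-sided, was 0.1, the smallest that 3 against 3 allows. The limma call was lost when any of the normal libraries was left out (adjusted p = 0.0676 without LT-HSC 2 months, 0.0507 without LT-HSC 6 months and 0.0515 without ST-HSC, within 0.00789 to 0.0676 over 14 alternatives), with log2 differences of -0.90, -0.84 and -0.84. Among the 6 mature myeloid markers, 1 passed in the same comparison, beside 2.34% of all genes: Cd14 was 1.01, 4.14 and 1.35 RPKM in LT-HSC 2 months, LT-HSC 6 months and ST-HSC, and 8.07, 16.3 and 19.3 RPKM in LT-CML 1, LT-CML 2 and ST-CML (log2 difference 2.35, adjusted p = 0.033). With upper-quartile scaling Cd14 did not pass. Of the 6 markers, 4 had a difference above 0 and 2 below it (Itgam -0.36 and Csf1r -0.19). The part of these markers in the H2-K1 difference was not tested.

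H2-D1 was 438 RPKM in LT-HSC 2 months, 377 in LT-HSC 6 months and 435 in ST-HSC, and 430, 359 and 510 in LT-CML 1, LT-CML 2 and ST-CML. The groups overlapped, and the log2 difference was 0.04 (standard error 0.16, adjusted p = 0.941 from limma). Its 95% limits of -0.32 to 0.41 did not reach the limits of the H2-K1 difference, although a difference between the genes was not tested. The ratio of H2-D1 to H2-K1 within a library is not altered by a constant factor per library, although quantile normalization can alter it. From the RPKM it was 1.08, 0.857 and 0.997 in the normal HSC libraries and 1.37 in normal KLS- cells. It was 1.71, 1.70 and 2.10 in LT-CML 1, LT-CML 2 and ST-CML, and 2.59 in CML-KLS-. Thus each of the 4 CML libraries lay above each of the 4 normal libraries in a ratio chosen after the values were seen. The summed heavy chains were 842, 816 and 872 RPKM in the normal HSC libraries and 681, 571 and 752 RPKM in the CML stem libraries.

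**Figure D2:**
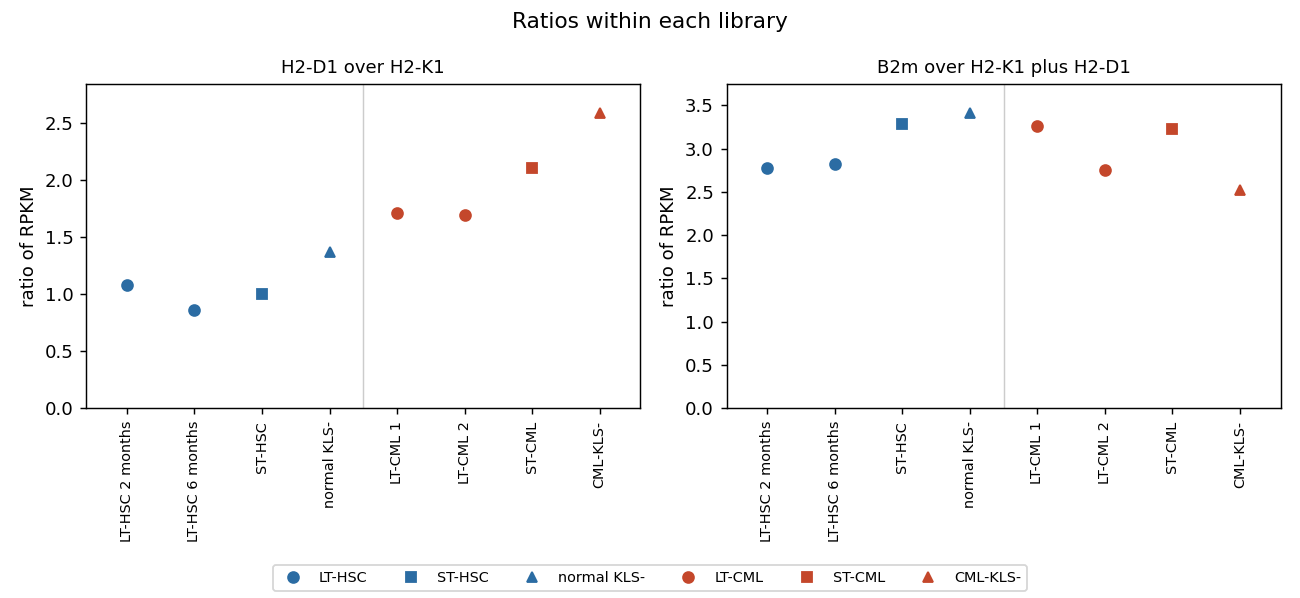
Ratios of RPKM within each of the 8 libraries (linear axes from 0), with H2-D1 over H2-K1 on the left and B2m over the summed heavy chains on the right; normal libraries are blue, CML libraries red, circles LT, squares ST and triangles KLS-. The H2-D1 to H2-K1 ratio is 0.857 to 1.37 in normal libraries and 1.70 to 2.59 in CML libraries, while the B2m ratio overlaps between them.

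Among the peptide transport genes, Tap1 followed the order of H2-K1 but did not pass the test. Tap1, the first subunit of the transporter, was 20.4, 18.3 and 22.0 RPKM in LT-HSC 2 months, LT-HSC 6 months and ST-HSC, and 13.7, 13.01 and 12 RPKM in LT-CML 1, LT-CML 2 and ST-CML. These groups did not overlap, and the log2 difference was -0.61 (standard error 0.14, 95% limits -0.93 to -0.29, adjusted p = 0.0757 from limma, exact permutation p = 0.1). After quantile normalization the adjusted p was 0.0452, within 0.0452 to 0.26 over 14 alternatives. Tap2, the partner subunit, was 17.6, 8.52 and 41.1 RPKM in the normal HSC libraries and 10.02, 9.87 and 11.6 RPKM in the CML stem libraries. The normal values spread far more than the CML values, and the log2 difference of -0.77 had limits of -1.86 to 0.32 (adjusted p = 0.580 from limma). The Tap2 difference was -0.21 without ST-HSC and -1.29 without LT-HSC 6 months. Accordingly the ratio of Tap2 to Tap1 ran from 0.467 in LT-HSC 6 months to 1.87 in ST-HSC.

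Tapasin, which links the transporter to the heavy chain, did not separate the groups. Tapbp was 38.0, 35.9 and 43.5 RPKM in the normal HSC libraries and 32.5, 28.0 and 42.5 RPKM in the CML stem libraries, a log2 difference of -0.20 (limits -0.62 to 0.21, adjusted p = 0.727). Erap1, the ER aminopeptidase that trims peptides, was 31.6, 22.9 and 44.3 RPKM in normal HSC and 23.6, 17.9 and 25.2 RPKM in CML stem libraries, and its groups overlapped (log2 difference -0.51, limits -1.09 to 0.07, adjusted p = 0.466). Nlrc5 was 5.82, 5.62 and 5.53 RPKM in normal HSC and 4.95, 3.40 and 4.15 RPKM in CML stem libraries. The Nlrc5 groups did not overlap, but the log2 difference of -0.38 (limits -0.75 to -0.01) had an adjusted p of 0.393. Thus 3 of the 10 members (H2-K1, Tap1 and Nlrc5) had all CML stem libraries below all normal HSC libraries, an order that 11.4% of all tested genes showed.

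The light chain and the chaperones gave no call. B2m had a log2 difference of -0.29 (limits -0.73 to 0.15, adjusted p = 0.615), with LT-CML 2 lowest and the other CML stem libraries within or near the normal range. Calr was 195, 158 and 194 RPKM in normal HSC and 217, 220 and 186 RPKM in CML stem libraries (log2 difference 0.19, limits -0.14 to 0.51, adjusted p = 0.668). Pdia3 was 165, 101 and 147 RPKM in normal HSC and 128, 112 and 105 RPKM in CML stem libraries (log2 difference -0.24, limits -0.70 to 0.22, adjusted p = 0.70). Of the 10 log2 differences 8 were below 0, with a median of -0.33 beside -0.04 for all genes tested.

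**Figure D3:**
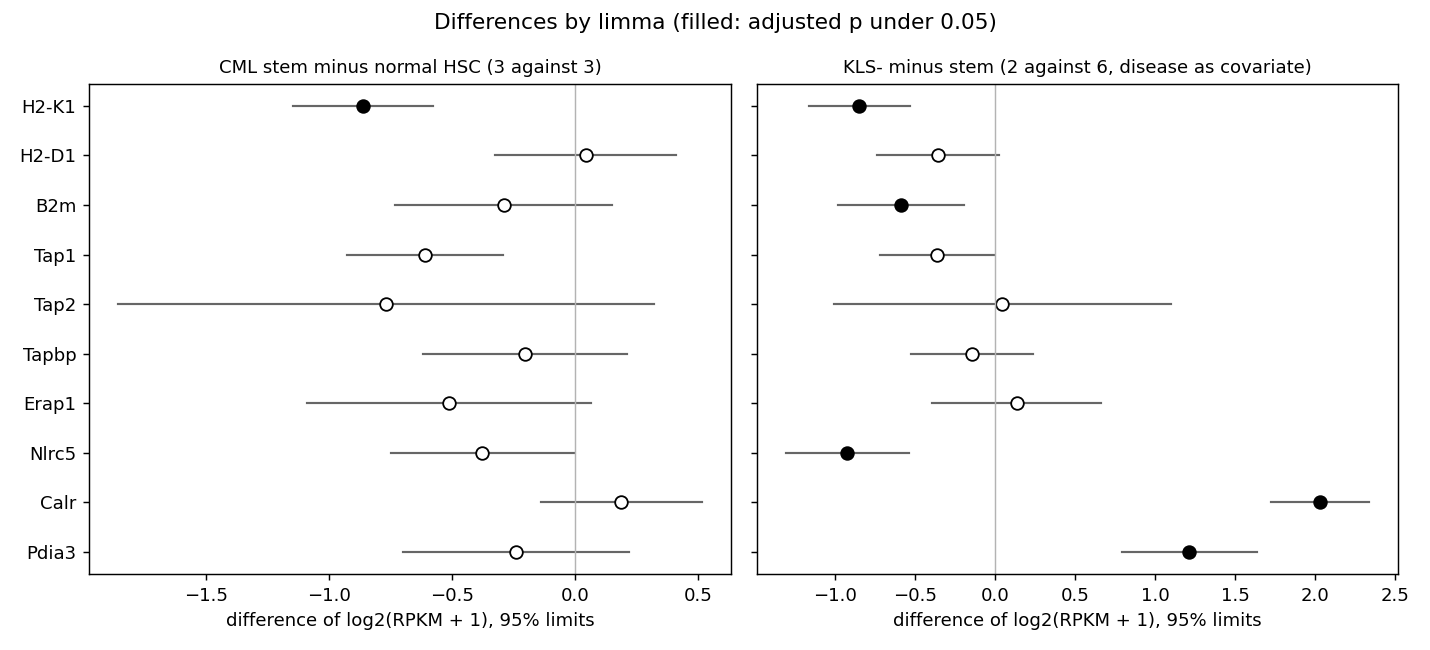
Differences of log2(RPKM + 1) for the 10 genes with 95% limits from limma, CML stem minus normal HSC on the left and KLS- minus stem on the right; filled points had an adjusted p under 0.05. On the left only H2-K1 is filled, at -0.86, and on the right Calr (2.03) and Pdia3 (1.21) lie above 0 and H2-K1, Nlrc5 and B2m below it.

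When LT-CML was compared with LT-HSC alone (2 against 2), 0 of the 10 members passed, and 1.73% of all genes passed in limma, the tool used throughout. An unadjusted p under 0.05 was found for 2 of the 10 (H2-K1 and Tap1) and for 11.6% of all genes. H2-K1 had a log2 difference of -0.87 (standard error 0.19, limits -1.31 to -0.43, adjusted p = 0.0818) and Tap1 one of -0.50 (standard error 0.18, adjusted p = 0.341). H2-D1 again lay near 0, at -0.05 with limits of -0.51 to 0.41. These libraries are also part of the comparison above, so its values are not a separate test.

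In the single ST libraries, which have no replicate, Tap2 was the only member with a difference of at least 1 on the log2(RPKM + 1) scale, a size that 4.04% of all genes reached. Tap2 was 41.1 RPKM in ST-HSC and 11.6 RPKM in ST-CML (-1.74). H2-K1 differed by -0.85, Tap1 by -0.82 and Erap1 by -0.79. Between the single KLS- libraries no member reached a difference of 1, as 3.24% of all genes did, and the largest were H2-D1 (272 RPKM in normal KLS- and 400 RPKM in CML-KLS-, a difference of 0.55) and Pdia3 (-0.46). H2-K1 was 199 and 155 RPKM in these libraries, a difference of -0.36, and Tap1 was 12.5 and 12.1 RPKM. A difference in the CML effect between stem and KLS- cells was tested as an interaction, which 0 of 10 members passed (adjusted p = 0.9999 for each in limma, 0 with an unadjusted p under 0.05, against 2.58% of all genes, and 0.00796% of all genes passing). For H2-K1 the interaction was 0.50 with limits of -0.07 to 1.07 and for Tap1 0.57 with limits of -0.07 to 1.21, so that neither an equal nor a smaller CML effect in KLS- cells was shown at this number of libraries.

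In KLS- progenitors the chaperones Calr and Pdia3 were higher than in stem cells, whereas H2-K1, Nlrc5 and B2m were lower. With disease as a covariate (2 libraries against 6), 2 of the 10 members passed as higher and 3 as lower, beside 19% of all genes higher and 22.7% lower. How many of all genes had no overlap between KLS- and stem libraries was not counted, so the separations given below have no such share beside them. Calr was 815 RPKM in normal KLS- and 775 RPKM in CML-KLS-, above the 6 stem libraries (lowest 157.9, median 194.4, highest 219.9 RPKM). The log2 difference was 2.03, with a standard error of 0.13 and an adjusted p of 5.06e-05. Pdia3 was 339 and 247 RPKM in the KLS- libraries against 101 to 165 RPKM (median 119.6) in stem libraries and rose by 1.21 (standard error 0.19, adjusted p = 0.00159). No KLS- value of these chaperones overlapped the stem libraries, and both calls held in all 16 alternatives.

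H2-K1 was 199 RPKM in normal KLS- and 155 RPKM in CML-KLS-, below all 6 stem libraries (lowest 211.5 in LT-CML 2, median 327.6, highest 439.2 RPKM). The fall of 0.85 on the log2 scale (standard error 0.14) had an adjusted p of 0.00217. Nlrc5, at 1.96 and 2.21 RPKM, was also below all stem libraries (3.40 to 5.82 RPKM, median 5.242) and fell by 0.92 (standard error 0.17, adjusted p = 0.00343). B2m, at 1605 and 1398 RPKM, overlapped the stem libraries through LT-CML 2 (1567 RPKM; the stem median was 2320.0 RPKM), and fell by 0.59 (standard error 0.17, adjusted p = 0.0262). Without normal KLS- the calls were lost but the differences stayed below 0, at -0.60 for H2-K1 (adjusted p = 0.0522, 0.000138 to 0.0522 over 16 alternatives), -0.67 for Nlrc5 (0.0758, 0.000592 to 0.0758) and -0.54 for B2m (0.188, 0.000944 to 0.188). The call of B2m was also lost without CML-KLS- (-0.63, adjusted p = 0.147), without a minimum on RPKM (-0.59, 0.0773) and against the LT libraries alone (-0.47, 0.0564). Quantile normalization moved H2-K1 to -1.38, B2m to -0.92 and Pdia3 to 0.68, and equal RPKM sums moved B2m to -0.94, all still called.

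The remaining members did not pass. H2-D1 was 272 RPKM in normal KLS- and 400 RPKM in CML-KLS-, and only the first lay below the stem range of 359 to 510 RPKM (log2 difference -0.36, limits -0.74 to 0.03, adjusted p = 0.119). H2-D1 was called as lower after quantile normalization (-0.91, adjusted p = 0.00244) and without LT-CML 2 (-0.43, adjusted p = 0.0383), within 0.00244 to 0.773 over 16 alternatives. It was -0.10 without normal KLS- and -0.61 without CML-KLS-. Tap1 had a difference of -0.36 (limits -0.72 to -0.01, adjusted p = 0.0927), with KLS- values of 12.5 and 12.1 RPKM that overlapped the CML stem libraries. Tap2 (0.05), Tapbp (-0.14) and Erap1 (0.13) lay near 0, and Tap2 and Erap1 turned below 0 under each of 3 other scalings. The scaling matters in this comparison, because RPKM values summed to more in the KLS- libraries. The median of all genes moved from -0.08 to -0.21 with upper-quartile scaling and to -0.28 with equal RPKM sums, and the share of calls that were higher moved from 45.5% to 30.0% and 20.5%. Under these scalings Calr and Pdia3 still passed as higher, while 5 members (with upper-quartile scaling, H2-D1 and Tap1 in addition) and 6 members (with equal sums, Tapbp as well) passed as lower. Of the 12561 genes tested, 5425 and 5776 passed in either direction under these scalings, against 5231 in the main fit. Calls as lower thus became more frequent over all genes too. Markers moved with the compartment too: summed erythroid markers (4 genes) were 47.1 and 78.0 RPKM in KLS- against 8.002 to 16.4 RPKM in stem libraries, and summed class II antigen-presenting cell markers (4 genes) 16.8 and 41.9 RPKM against 95.4 to 516 RPKM. Of the 6 mature myeloid markers 3 passed as higher, beside 19% of all genes, namely Csf1r (log2 difference 3.61), Cd14 (3.01) and Ly6c2 (5.26). Itgam (0.25), S100a8 (0.17) and S100a9 (-1.3) did not pass. The summed mature myeloid markers, 943 and 1703 RPKM in normal KLS- and CML-KLS-, lay within the range of the stem libraries. The part of these cell types in the rises and falls was not tested.

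The other genes of the pathway were taken from 4 lists. Between CML stem cells and normal HSCs 0 genes of these lists passed in limma, beside 2.34% of all genes. Among 8 further loading and quality control genes 0 had an unadjusted p under 0.05, and the numbers were 2 of 6 for the immunoproteasome and its activator, 2 of 15 for transcription factors of class I genes and 1 of 8 for interferon receptors and signalling, beside 12.5% of all genes. Their median log2 differences were -0.11, -0.22, -0.17 and -0.02.

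Between KLS- and stem cells 6 of the 8 loading and quality control genes rose, beside 19% of all genes (median log2 difference 0.98, against -0.08 for all genes). None passed as lower in this fit. Lnpep, a peptidase of endosomes, was at -0.29 (adjusted p = 0.114 from limma), and it passed as lower with upper-quartile scaling and with equal RPKM sums. The largest rises were those of Sec61a1 (1.41) and Sec61b (1.01), channel subunits through which proteins enter the ER, Hspa5 (1.12), the ER chaperone BiP, and Uggt1 (1.06), which marks misfolded glycoproteins for another folding round. Hspa5 was 702 and 587 RPKM in normal KLS- and CML-KLS- against 213 to 433 RPKM in stem libraries. The 6 genes that passed had the direction of Calr and Pdia3, while Tapbpl, a relative of tapasin, did not pass (0.19, adjusted p = 0.464). After quantile normalization 5 passed and Hspa5 did not.

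Of the immunoproteasome list, Psme2 (0.90), a subunit of the proteasome activator PA28, and Pomp (0.43), a proteasome assembly factor, rose, and the other 4 genes of the 6 did not pass, beside 19% of all genes higher. Psmb8 and Psmb9, the catalytic subunits encoded beside the transporter genes, had differences of 0.47 and 0.15. The median of this list was 0.32. Under quantile normalization neither Psme2 nor Pomp passed and Psme1 passed as lower, and with upper-quartile scaling or equal sums Psme2 alone passed.

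Of the 15 transcription factors 7 fell and 2 rose (median -0.37), beside 22.7% of all genes lower and 19% higher, and under the 3 other scalings 8, 9 and 11 passed as lower and Irf8 alone as higher. Over all genes, 4149 (quantile), 5425 (upper-quartile) and 5776 (equal sums) passed in either direction. Of these calls, 50.3%, 30.0% and 20.5% were higher. Irf2 (-1.54), Irf1 (-1.48) and Irf9 (-0.84), members of the interferon regulatory factor family, fell, whereas Irf8 (3.77), a regulator of myeloid differentiation, rose. Irf1 was 18.4 and 20.8 RPKM in normal KLS- and CML-KLS- against 37.8 to 71.6 RPKM in stem libraries, and Irf8 was 37.7 and 28.7 RPKM against 0.904 to 2.07 RPKM. The groups of both genes were thus apart, an order that was not counted over all genes. Of the 8 genes of the interferon receptor list 1 passed as higher and 2 as lower (median -0.07), beside 19% and 22.7% of all genes. Ifngr1 (1.72), the ligand-binding chain of the interferon-gamma receptor, rose. The kinases Jak1 (-1.12) and Jak2 (-0.69) fell, the last without a call after quantile normalization.

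**Figure D4:**
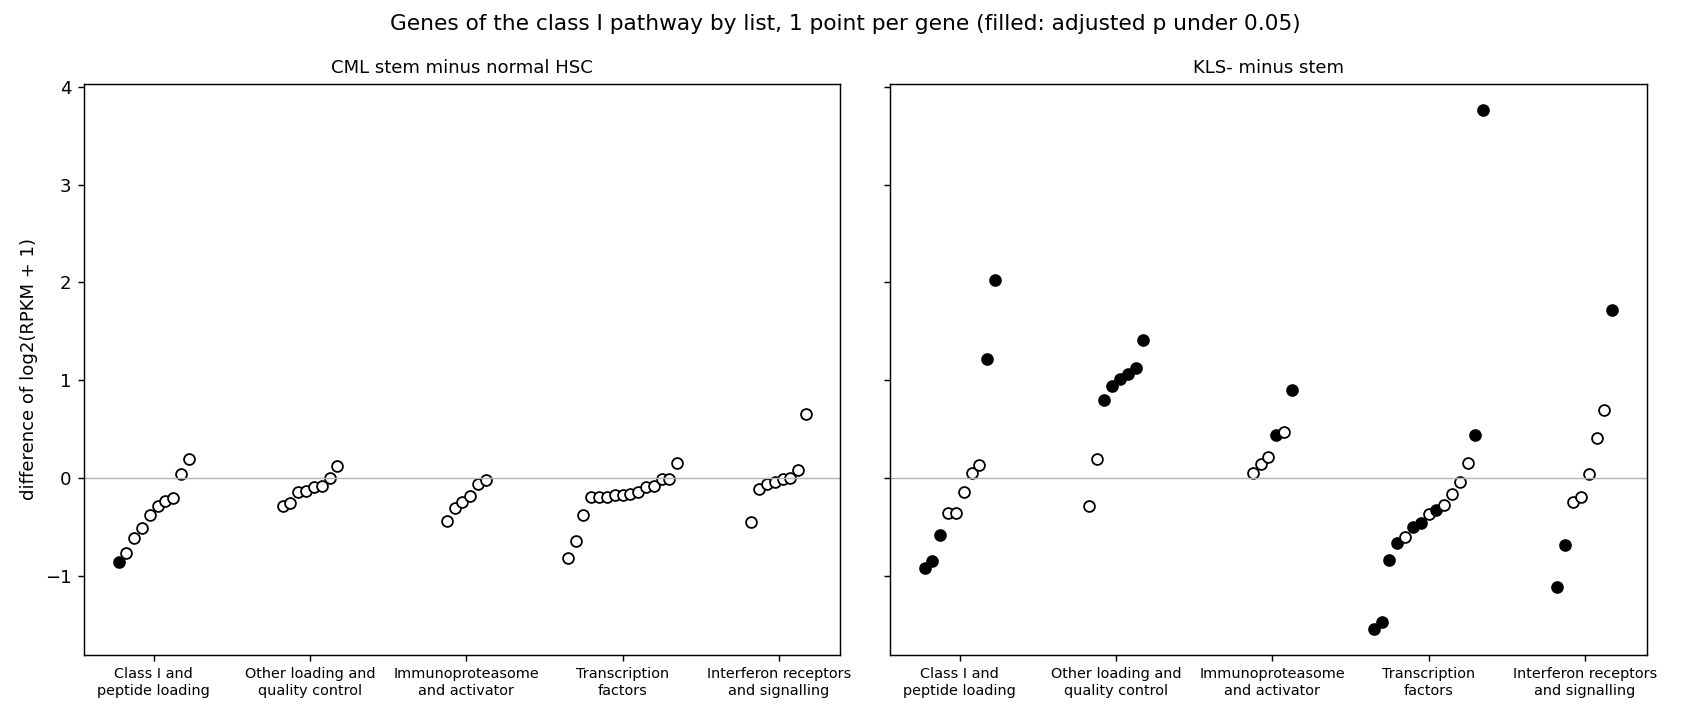
Differences of log2(RPKM + 1) for the 10 class I and loading genes and the 4 further lists, 1 point per gene, for CML stem minus normal HSC on the left and KLS- minus stem on the right; filled points had an adjusted p under 0.05 in limma. On the left H2-K1 is the only filled point, and on the right 6 of 8 loading and quality control genes are filled above 0 and 7 of 15 transcription factors below 0.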

How the data were processed

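Libraries were grouped by their labels. The authors primed total RNA with oligo-dT (a kit for very small inputs), had paired-end reads mapped to mm9 by a company, and deposited the RPKM of each gene. The annotation, counting rule and strand setting are not given in the sources used here. RPKM are not counts, so limma 3.58.1 in R 4.3.3 (intensity trend) was run on log2(RPKM + 1). Genes entered if their RPKM summed to over 1 (12561 genes), and p-values were adjusted by Benjamini-Hochberg, the threshold being 0.05. Fold changes on this scale understate those of low genes. CML stem was compared with normal HSC (3 against 3), LT-CML with LT-HSC (2 against 2, from a fit of 6 population means with 2 residual degrees of freedom), KLS- with stem (disease as covariate), and the interaction was tested. The steps were tested on simulated data. The changes set there were larger than any CML against normal difference of a member, so that smaller changes were not covered.

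Depth was estimated from steps between low RPKM values and exon lengths of GENCODE M1. Values of 63.5% of the 4061 low genes lay on whole multiples of their smallest value (tolerance 0.04 steps), too few to recover reads. Python 3.11.15 with Biopython 1.88 was used for sequences.

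The members, gene lists, motifs and tests were chosen with earlier results of these data known. Named were all members, of the 4 further lists at most 4 called genes per list and test by size, and for H2-K1, B2m and Tap1 the 3 genes with the highest correlation. Psmb8, Psmb9, Tapbpl, Lnpep, Psme1 and the markers were named outside this rule after their values were seen. Alternatives covered the pseudocount, the minimum, the scaling, the samples and covariates, and leaving out each library.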

Additional observations from a re-analysis of the deposited data

How the results depend on the processing

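Of 590 values recomputed for single members, 550 kept their direction and side of the threshold. Between CML stem and normal HSC the count of all genes called moved from 294 to 193 without a minimum on RPKM and to 543 with cell type as covariate, and that of members from 1 to 2 under quantile normalization. With that normalization 299 genes were called. Leaving out 1 library gave 115 to 217 genes and 0 to 1 member there, 6 to 225 genes for LT-CML against LT-HSC, 1750 to 5275 genes and 2 to 6 members for KLS- against stem, and 0 to 1 gene for the interaction, which could not be fitted without a KLS- library. LT-CML against LT-HSC gave 0 genes in limma without a minimum (1765 with an unadjusted p under 0.05). KLS- against stem gave 8 members with equal RPKM sums, a scaling chosen after seeing the data. With equal sums 5776 of the 12561 genes tested were called there, against 5231 in the main fit. The interaction (1 gene; 324 with an unadjusted p under 0.05) gave 0 with a pseudocount of 0.1, a mean of at least 1 RPKM, upper-quartile scaling or equal sums, 2 with quantile normalization, 10 without a minimum and 17 with a pseudocount of 5. The cause was not tested. Where a left-out library leaves an arm with 1, that library is assumed to vary like the others.

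Values that turned direction were all of uncalled members. H2-D1 in CML stem against normal HSC ran from -0.0806 without ST-CML to 0.172 without LT-CML 2, and was -0.0269 without LT-HSC 6 months. In LT-CML against LT-HSC it was 0.032 (quantile) and 0.0213 (equal sums) and ran from -0.178 without LT-CML 1 to 0.0828 without LT-CML 2, while Tap2 ran from -0.764 without LT-HSC 6 months to 0.202 without LT-HSC 2 months and Pdia3 from -0.467 to 0.236 without the same libraries. In KLS- against stem, Tap2 was -0.0296 (quantile), -0.166 (upper-quartile) and -0.283 (equal sums) and ran from -0.395 without CML-KLS- to 0.488 without normal KLS-, and Erap1 was -0.10, -0.087 and -0.207 under the 3 scalings. In the interaction, B2m was -0.0113 (quantile) and -0.0535 (equal sums) and ran from -0.0985 without LT-CML 2 to 0.217 without ST-CML, and Erap1 was -0.00354 (equal sums) and ran from -0.103 without ST-HSC to 0.36 without LT-HSC 6 months. No paired analysis was possible because the groups share no replicate numbers in the labels.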

Other observations

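Over the 8 libraries, the genes whose log2(RPKM + 1) followed H2-K1 most closely were Plcb2 (Pearson r = 0.980), H2-Q7 (0.980) and H2-T23 (0.979), among 3046 genes with a mean of at least 5 RPKM that varied by at least 1 log2 unit. H2-Q7 and H2-T23 are non-classical class I genes. H2-T23 was 196, 223 and 207 RPKM in LT-HSC 2 months, LT-HSC 6 months and ST-HSC, 96.2, 97.4 and 99.2 RPKM in LT-CML 1, LT-CML 2 and ST-CML, and 83.5 and 43.1 RPKM in normal KLS- and CML-KLS-. H2-Q7 was 54.3, 49.3 and 43.0 RPKM in the normal HSC libraries and 19.9, 17.2 and 16.0 RPKM in the CML stem libraries, with 12.9 and 9.51 RPKM in normal KLS- and CML-KLS-. Both genes were picked by their correlation with H2-K1, so that their order, highest in normal HSCs, followed from the choice. H2-T24, a class I gene picked after its values were seen, had the opposite order, at 7.14, 6.91 and 7.07 RPKM in normal HSC and 54.4, 38.6 and 38.7 RPKM in CML stem libraries. The correlations describe 8 libraries that share their compartments and disease groups, and class I genes also share sequence.

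The genes closest to Tap1 were Ifih1 (r = 0.947), a sensor of viral RNA, H2-Q7 (0.937) and H2-K1 (0.923). Ifih1 was 16.3, 11.1 and 16.7 RPKM in normal HSC, 6.42, 5.09 and 5.16 RPKM in CML stem, and 5.56 and 2.53 RPKM in normal KLS- and CML-KLS- libraries. B2m was closest to Pafah1b3 (0.986), Fxyd5 (0.976) and Pgcp (0.974). Between members, r was 0.916 for Calr and Pdia3, 0.878 for Tap2 and Erap1, -0.920 for Calr and Nlrc5, and 0.312 for H2-K1 and H2-D1. Over the 6 stem libraries alone, r was 0.939 for H2-K1 and Tap1, 0.342 for Calr and Pdia3, and -0.038 for H2-K1 and H2-D1.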
